A study of Mus musculus with 6 samples.

Results

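The circadian clock genes examined here were Clock, Per1, Per2, Per3, Cry1, Cry2, Nr1d1, Nr1d2, Dbp and Tef, chosen by name. All 10 were measured, each by 1 probe, among 19517 features (16887 named genes and 2630 unnamed probes). Liver RNA came from 6 C57BL/6 mice that started at 7 weeks of age and ate the HFC diet, called high fat in the sample names, for 12 days. In the fenofibrate group (2 mice), oral fenofibrate at 100 mg/kg was given daily from day 5. In the lovastatin group (2 mice), the series' design gives lovastatin at 30 mg/kg on the same schedule, and the sample titles name lovastatin although the treatment text attached to those samples names fenofibrate. The HFC group (2 mice) had the diet with no drug, and the design text adds an oral vehicle. Every mouse was set against the same pool of liver RNA from 6 chow-fed mice on a 2-colour array, so chow mice have no spread of their own here. The labels give no time of day for the excision of any liver or of the pool.

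The mammalian clock is a feedback loop of transcription that runs in nearly every cell. CLOCK and BMAL1 (gene Arntl) bind E-box elements and switch on the Per and Cry genes, whose proteins return to the nucleus and repress them. REV-ERBα and REV-ERBβ (Nr1d1, Nr1d2) form another loop by repressing Arntl, and the PAR bZIP factors DBP and TEF pass the rhythm on to genes with D-box elements, many of them liver enzymes. In mouse liver these genes are known for large daily swings in RNA, with meal times as a strong cue.

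Each value is a deposited log ratio of the authors. Base 2 was assumed and a positive value was read as higher in the mouse than in the chow pool. This direction is likely and no source states it. The mouse carried Cy3 on the fenofibrate arrays and Cy5 on the lovastatin and HFC arrays, so in any comparison of fenofibrate with another group a gene-specific dye effect and the drug cannot be told apart. Over all features the fenofibrate arrays correlated with the other arrays at r from 0.0615 to 0.319 (features are not independent replicates). Replicates of a group correlated at 0.402 for fenofibrate, 0.189 for lovastatin and 0.246 for HFC. With HFC replicate 1, lovastatin replicate 1 correlated at 0.188 and lovastatin replicate 2 at 0.508. The array SD ranged from 0.414 to 0.567 except for lovastatin replicate 1, at 1.08. On HFC replicate 2, 4 blocks of array columns hold values displaced along the rows. Those spots, 50.3% of the probes used, were set to missing on that array. They include Clock, Cry1, Cry2, Nr1d1 and Dbp, so for these 5 genes the HFC group rests on replicate 1 alone. A second HFC value for them is given as "put back" where a rotation of the block brought back its correlation with other arrays. It entered no test unless stated. Ratios do not show whether a cell type's markers were present at all. The hepatocyte markers (5 of 6 measured) had medians of -0.63 and -1.05 on the fenofibrate arrays, -0.59 and -0.65 on the lovastatin arrays and -0.53 and -0.34 on the HFC arrays, so their median lay below 0 on every array. In bulk tissue, fewer cells of a type and less RNA per cell cannot be told apart, and the part of these markers in the clock gene values was not tested.

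The broadest question was whether clock genes differed from the chow pool in all HFC-fed mice, with both dye orientations weighted equally. None of the 10 passed the test, whereas 110 of 19447 features (0.566%) did, 33 higher and 77 lower (limma, Benjamini-Hochberg adjusted p at or under 0.05). The members with the lowest mean ratios were Dbp and Per1, which were also the 2 of 10 members with an unadjusted p under 0.05, against 10.8% of all features. The median over the members was -0.104, and 0.007 over all features tested, with 4 members above 0 and 6 below.

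**Figure D1:**
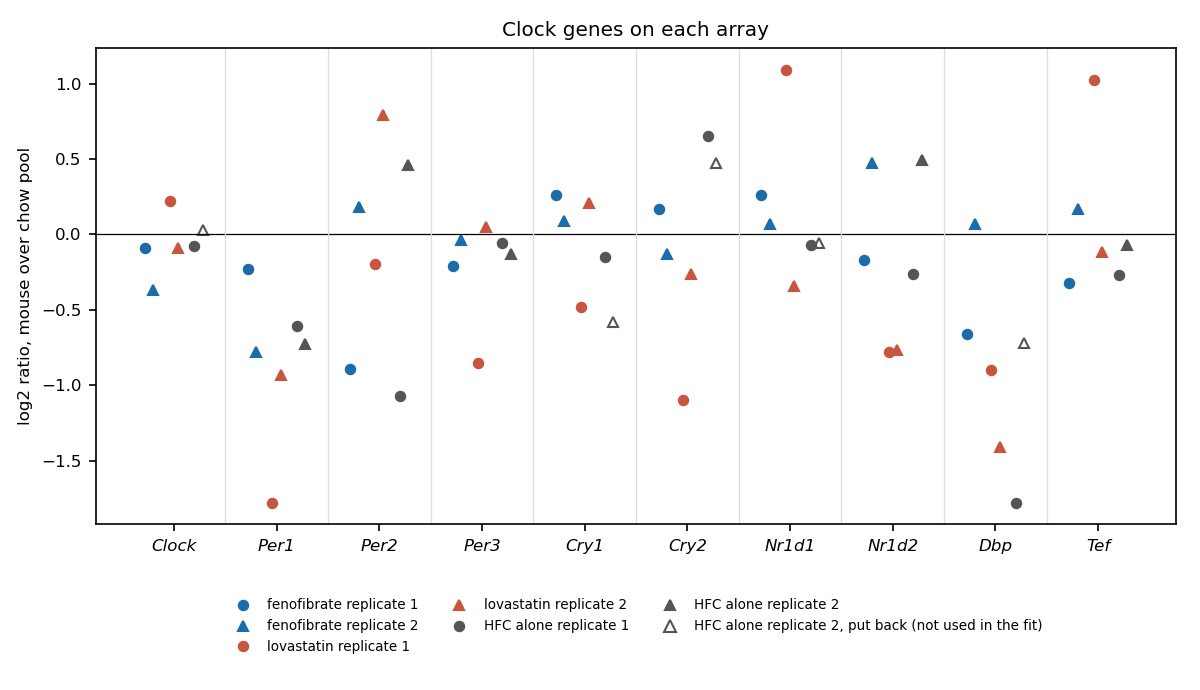
Log2 ratio of mouse over chow pool (vertical axis) for each clock gene on each array, with fenofibrate in blue, lovastatin in red and HFC alone in grey, circles for replicate 1 and triangles for replicate 2. Open triangles are put-back values of displaced spots, which entered neither the means nor the tests. Per1 lies below 0 on all 6 arrays, while Per2 ranges from -1.07 to 0.79.

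Among the repressors of the core loop, Per1, a period gene that also responds to acute signals, was the member below 0 on every array. Its log2 ratio was -0.23 and -0.78 in fenofibrate mice, -1.78 and -0.93 in lovastatin mice, and -0.61 and -0.73 in HFC mice. The lowest value is on the widest array, and the highest is on a fenofibrate array. Across all groups the mean was -0.76 (SE 0.167, 95% interval -1.18 to -0.34, limma adjusted p = 0.190), with the 6 arrays between -1.78 and -0.23. Of the features with a value on all 6 arrays, 5.87% lay below 0 on each. Leaving out lovastatin replicate 2 brought Per1 past the threshold (-0.87, limma adjusted p = 0.0371), and over all alternatives its mean stayed between -0.90 and -0.62 with adjusted p from 0.0371 to 0.999.

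The promoters of Per1, Dbp and Per3 are shown because Per1 and Dbp had the lowest ratios of the 10 genes and Per3 carries the D-box matches. Each is 250 bases before to 50 after a RefSeq start, 5′ to 3′, in build GRCm38.p6, with motif matches in capitals. The motifs searched on both strands were the E-box CACGTG, the D-box TTATGTAA and its variant TTATGCAA, the nuclear receptor core AGGTCA and the cAMP response element TGACGTCA.
Per1, chr11:69098699-69098998, + strand: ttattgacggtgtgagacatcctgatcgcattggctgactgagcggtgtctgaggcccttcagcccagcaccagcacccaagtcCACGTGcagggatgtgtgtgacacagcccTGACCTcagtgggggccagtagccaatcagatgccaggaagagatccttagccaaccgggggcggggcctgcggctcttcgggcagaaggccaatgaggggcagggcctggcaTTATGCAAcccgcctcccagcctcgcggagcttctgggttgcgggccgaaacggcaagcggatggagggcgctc
Dbp, chr7:45704997-45705296, + strand: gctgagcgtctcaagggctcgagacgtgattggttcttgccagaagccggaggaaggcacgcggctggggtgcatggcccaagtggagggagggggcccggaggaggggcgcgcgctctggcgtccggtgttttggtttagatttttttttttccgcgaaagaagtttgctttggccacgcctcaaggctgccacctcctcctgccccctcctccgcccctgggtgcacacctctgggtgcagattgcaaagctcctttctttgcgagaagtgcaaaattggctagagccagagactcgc
Per3, chr4:151044616-151044915, - strand: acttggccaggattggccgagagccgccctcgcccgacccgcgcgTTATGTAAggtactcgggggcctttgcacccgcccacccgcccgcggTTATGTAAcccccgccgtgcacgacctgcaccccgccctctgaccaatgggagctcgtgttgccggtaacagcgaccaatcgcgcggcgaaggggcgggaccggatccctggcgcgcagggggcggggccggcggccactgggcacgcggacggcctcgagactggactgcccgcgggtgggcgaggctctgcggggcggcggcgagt

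The Per1 window shown holds an E-box at -166 from the start, an AGGTCA match on the opposite strand at -137 and the D-box variant at -24. The other Per1 promoter matched, chr11:69099902-69100201, holds none of the motifs searched. The Per3 window holds the D-box at -205 and at -158, and the Dbp window none of these motifs. No matches overlapped in these windows. RefSeq promoters were matched for 9 of the 10 genes (all but Per2), 13 promoters in all. The E-box occurred in 4 of the 13, namely that of Per1 shown, that of Cry1 and both of Tef, and in 7.15% of all 32851 promoters. The D-box was in 1 of 13 and in 0.938% of all, its variant in 1 of 13 and 0.743%, AGGTCA in 3 of 13 (Per1, Clock and Nr1d2) and 16.3%, and TGACGTCA in 0 of 13 and 1.79%. These matches describe the letters in the windows and were not set against the expression values.

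Per2, a period gene known to respond to systemic cues as well as to the clock, had values on both sides of 0 in every group. It was at -0.89 and 0.18 in fenofibrate mice, -0.20 and 0.79 in lovastatin mice, and -1.07 and 0.46 in HFC mice. The groups overlap, and the mean over all of them was -0.18 (SE 0.296, 95% interval -0.93 to 0.57, limma adjusted p = 0.863). Its SD within groups was 0.863, larger than that of 89.7% of the features with the same replicate pairs, whose median was 0.350.

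Per3, a period gene that mouse clocks can largely do without, lay close to 0 on 5 of 6 arrays. It was at -0.21 and -0.04 in fenofibrate mice, -0.85 and 0.05 in lovastatin mice, and -0.06 and -0.13 in HFC mice, so that lovastatin replicate 1 alone lay far from the rest. On that array, the widest, Per3 stood at percentile 16.6 of all features. The mean over all groups was -0.19 (SE 0.157, limma adjusted p = 0.739).

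The cryptochromes, the strongest repressors of CLOCK and BMAL1, had means near 0 over all groups, 0.02 for Cry1 (95% interval -0.42 to 0.46) and 0.00 for Cry2 (95% interval -0.49 to 0.50). Cry1 was at 0.26 and 0.09 in fenofibrate mice, -0.48 and 0.21 in lovastatin mice, and -0.15 in HFC replicate 1, with -0.58 put back in replicate 2. Cry2 was at 0.17 and -0.13 in fenofibrate mice, -1.10 and -0.26 in lovastatin mice, and 0.65 in HFC replicate 1, with 0.47 put back. Cry2 was thus lowest in lovastatin mice and highest in HFC mice, and the share of all features with this order was not counted. On lovastatin replicate 1, the widest array, Cry2 stood at percentile 12.2 of all features. The limma adjusted p over all groups was 0.978 for Cry1 and 0.997 for Cry2.

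Clock, the activator that pairs with BMAL1 and swings little through the day in liver, had the smallest spread within groups of the 10 genes (SD 0.209, above 27.7% of like features). It was at -0.09 and -0.37 in fenofibrate mice, 0.22 and -0.09 in lovastatin mice, and -0.08 in HFC replicate 1, with 0.03 put back. The mean over all groups was -0.12 (SE 0.136, 95% interval -0.48 to 0.25, limma adjusted p = 0.809).

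Of the REV-ERB receptors, which bind haem and repress Arntl, Nr1d1 was at 0.26 and 0.07 in fenofibrate mice, 1.09 and -0.34 in lovastatin mice, and -0.07 in HFC replicate 1, with -0.06 put back. Its highest and lowest values are both in lovastatin mice, and the mean over all groups was 0.16 (SE 0.257, limma adjusted p = 0.863). Nr1d2 was at -0.17 and 0.47 in fenofibrate mice, -0.78 and -0.77 in lovastatin mice, and -0.26 and 0.49 in HFC mice. Both lovastatin arrays lay below all 4 other arrays, and the share of all features with this pattern was not counted. The mean of Nr1d2 over all groups was -0.09 (SE 0.164, limma adjusted p = 0.873).

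Dbp, an output activator with one of the largest daily swings known in liver, had the lowest mean of the 10. It was at -0.66 and 0.07 in fenofibrate mice, -0.90 and -1.41 in lovastatin mice, and -1.78 in HFC replicate 1, with -0.72 put back in replicate 2. Fenofibrate replicate 2 was the array above 0. The mean over all groups was -0.88 (SE 0.184, 95% interval -1.38 to -0.39, limma adjusted p = 0.217), and with the displaced blocks put back it was -0.75 (limma adjusted p = 0.223). Among all features of an array, Dbp stood at percentiles 5.8 and 57.3 on fenofibrate replicates 1 and 2. It stood at 15.6 and 0.7 on lovastatin replicates 1 and 2, and at 0.3 on HFC replicate 1. Of features with a displaced spot, 8.42% lay below 0 on all 5 remaining arrays, and Dbp, at 4 of 5, was not among them. Tef, its relative with a shallower rhythm, was at -0.32 and 0.17 in fenofibrate mice, 1.02 and -0.12 in lovastatin mice, and -0.27 and -0.07 in HFC mice. The mean of Tef was 0.03 (SE 0.193, limma adjusted p = 0.961), and the same lovastatin array was the highest for Tef as for Nr1d1. On that array, the widest, Tef stood at percentile 86.6 and Nr1d1 at 87.4 of all features.

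**Figure D2:**
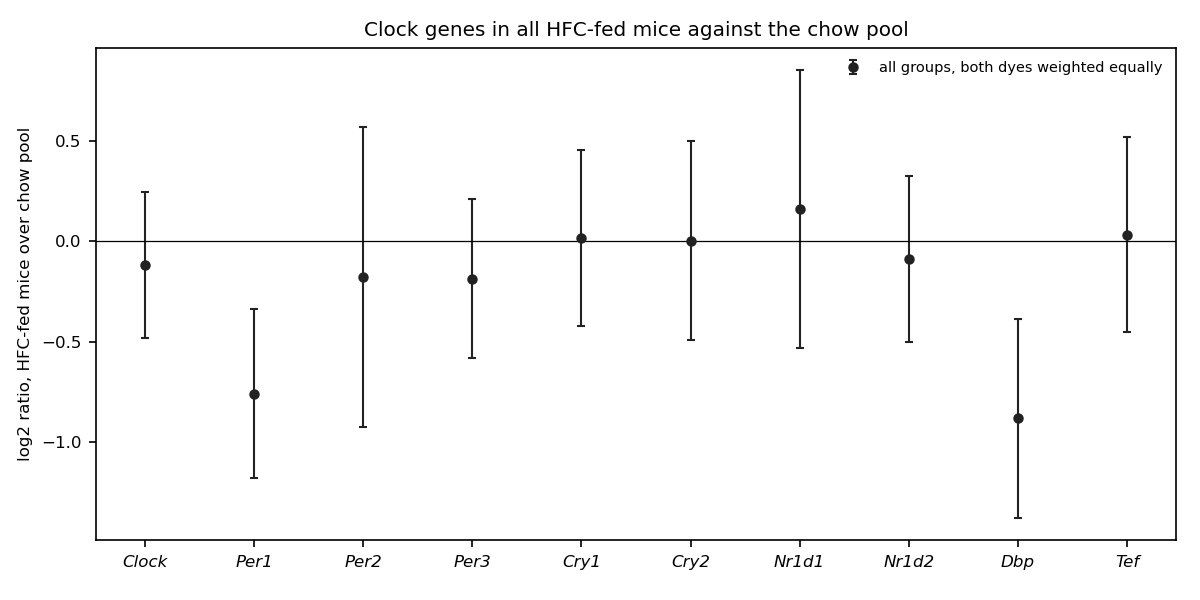
Mean log2 ratio of all HFC-fed mice over the chow pool (vertical axis) for each clock gene, with both dye orientations weighted equally. Points are limma estimates and bars their 95% intervals. The bars of Per1 (-1.18 to -0.34) and Dbp (-1.38 to -0.39) lie below 0, before any adjustment for the number of features.

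Set against the pool group by group, no feature passed in any group, which is 0% of 19470, 19501 and 19499 features for fenofibrate, lovastatin and HFC, so the absence of clock genes among the calls carries no information about them. At an unadjusted p under 0.05, limma gave 1483 features for fenofibrate, 2064 for lovastatin and 921 for HFC, with 0, 3 and 1 clock genes among them. The 3 in lovastatin mice were Per1 (-1.36 ± 0.601, SD, n = 2, limma adjusted p = 0.384), Dbp (-1.16 ± 0.361, 0.438) and Nr1d2 (-0.78 ± 0.0071, 0.438). Without lovastatin replicate 2 the array of SD 1.08 stood alone for the group, and Per1 was at -1.78. The 1 in HFC mice was Dbp, from replicate 1 alone (-1.78, limma adjusted p = 0.798), and with its second value put back the mean was -1.25 (limma adjusted p = 0.577). The order of the group means of Per1 was lovastatin, HFC and fenofibrate from the lowest up. That of Dbp was HFC, lovastatin and fenofibrate, and of the pairs fitted, fenofibrate with HFC and lovastatin with HFC, none passed the test for either gene. These comparisons share the chow pool, so their values are not independent of each other.

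The comparison of fenofibrate with HFC mice asked what the PPARα activator did to clock genes on the same diet. No gene passed, which is 0% of 19456 features (559 at an unadjusted p under 0.05). Dbp had the largest difference among clock genes, 1.49 (95% interval 0.19 to 2.78, limma adjusted p = 1.0), from -0.66 and 0.07 in fenofibrate mice against -1.78 in HFC replicate 1. With the put-back value of -0.72 as a second HFC sample the difference was 0.96 (limma adjusted p = 0.999), and with the displaced value as deposited it was 0.42. The other 9 members had differences from -0.63 for Cry2 to 0.33 for Cry1. Their intervals all included 0 and were narrowest for Per3 (-0.94 to 0.88) and Nr1d2 (-0.92 to 0.99) and widest for Nr1d1 (-1.57 to 2.04). That of Per1 was -0.81 to 1.14 and that of Per2 -1.77 to 1.67. Of the 5 members with all 4 values, 0 had arrays that did not overlap between the groups, against 39.5% of all such features. With the blocks put back 5 of 10 did not overlap (Cry1, Nr1d1 and Dbp higher, Clock and Cry2 lower in fenofibrate mice), against 40.1%. The hepatocyte markers were lower in fenofibrate than HFC mice for 5 of 5 (median -0.51). Displaced markers, Alb and Ttr among them, rest on HFC replicate 1 alone. Cholangiocyte markers were lower for 3 of 4 (median -0.47) and stellate cell markers for 4 of 5 (median -0.435). The Kupffer cell, lymphocyte and endothelial medians were -0.04, -0.04 and -0.08. Dye and drug cannot be told apart here, and the part of all these markers in the clock gene differences was not tested.

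Lovastatin, an inhibitor of cholesterol synthesis, was compared with HFC on arrays of the same dye orientation. No gene passed (0% of 19485 features, 390 at an unadjusted p under 0.05). Cry2 had the largest difference, -1.33 (95% interval -2.63 to -0.03, limma adjusted p = 0.972), from -1.10 and -0.26 in lovastatin mice against 0.65 in HFC replicate 1. It was -1.24 with the put-back value of 0.47 (limma adjusted p = 0.821). Without lovastatin replicate 1 it was -0.91 (limma adjusted p = 1.0), and without lovastatin replicate 2 it was -1.75 (0.0713). Nr1d2 differed by -0.89 (95% interval -1.84 to 0.06) and Per1 by -0.69 (95% interval -1.66 to 0.29), both at limma adjusted p = 0.972. The difference of Per1 was -0.26 without lovastatin replicate 1 and -1.11 without lovastatin replicate 2, and -0.28 after quantile normalization. That of Nr1d2 was -0.52 without HFC replicate 2. For Nr1d2 and Per1 every lovastatin array was lower than every HFC array, which made 2 of the 5 members with all 4 values. Of all such features 18.1% were lower in this way, and 31.0% did not overlap in either direction. With the blocks put back Cry2 joined Nr1d2 and Per1, 3 of 10, against 17.0% lower and 30.7% not overlapping in either direction. Dbp differed by 0.63 (95% interval -0.67 to 1.92), by 0.10 with the value put back and by -0.45 as deposited. Its direction therefore rests on how the displaced spot is treated. The Kupffer cell markers were higher in lovastatin than HFC mice for 7 of 7 (median 0.25), with 0 past the threshold. Their median ratio to the pool was 0.42 on lovastatin replicate 1, the widest array, and 0.07 on replicate 2. Lymphocyte markers were higher for 4 of 5 (median 0.305) and cholangiocyte markers lower for 3 of 4 (median -0.535). Of the hepatocyte, endothelial and stellate cell markers 3 of 5 were lower in each list. The part of all these markers was not tested.

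**Figure D3:**
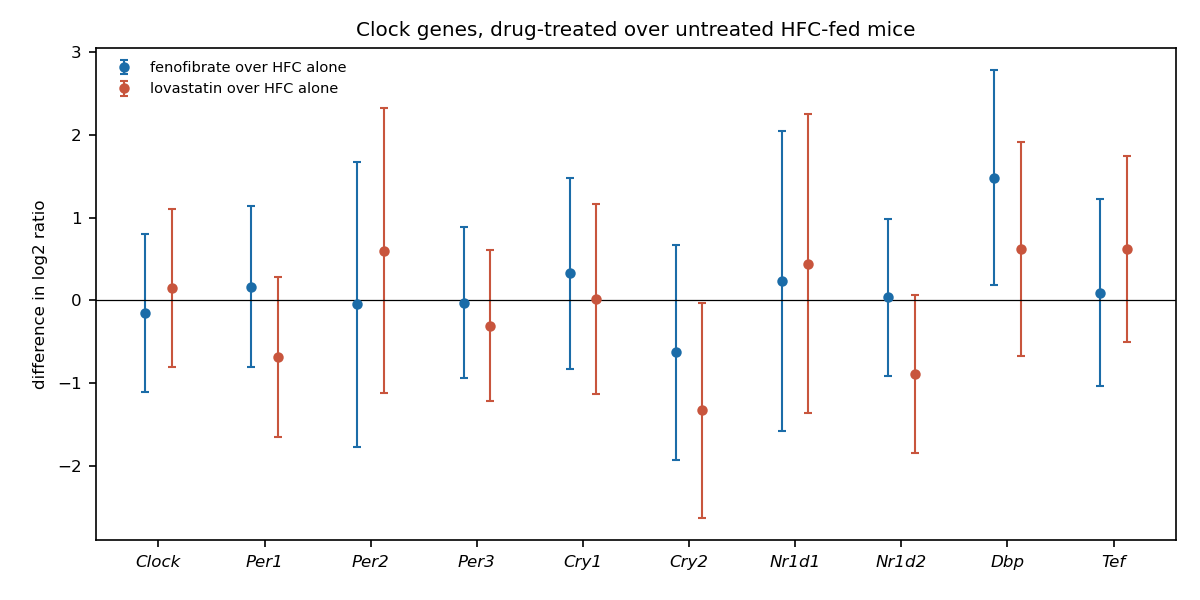
Difference in log2 ratio (vertical axis) of fenofibrate over HFC mice in blue and lovastatin over HFC mice in red, for each clock gene. Points are limma estimates and bars 95% intervals, most of which span 0. Those of Dbp for fenofibrate (0.19 to 2.78) and Cry2 for lovastatin (-2.63 to -0.03) do not, and neither passed after adjustment.

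The other clock genes and rhythmic liver outputs, 33 of 38 with a probe, were described beside the members in the comparison of all HFC-fed mice with the pool. Across them 15 lay above 0 and 18 below, with a median of -0.185, and 1 passed. The first 5 of the 7 lists also hold the 10 members, and the values given for these lists include them. The activators (3 of 3 measured) had a median of -0.119 and the period and cryptochrome genes (5 of 5, all of them members) one of -0.18. The REV-ERB and ROR receptors (4 of 5) had a median of 0.129, the PAR bZIP factors with Nfil3 (4 of 4) -0.209, and the E-box repressors and clock modifiers (9 of 11) 0.17. None of the genes in these 5 lists passed in either direction. Of the rhythmic outputs (15 of 16) 10 lay below 0, with a median of -0.529, and of the reported PAR bZIP targets (5 of 7) 4 did, with a median of -0.28, against 0.007 for all features.

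The gene that passed was Cyp7a1, a rhythmic liver gene for cholesterol 7α-hydroxylase, which starts bile acid synthesis, and a reported DBP target in rodents, which fell by 2.09 on the log2 scale (SE 0.131, limma adjusted p = 0.0121). The call was lost without fenofibrate replicate 1 (limma adjusted p = 0.293), fenofibrate replicate 2 (0.397), HFC replicate 1 (0.0789) or HFC replicate 2 (0.0583), and with HFC replicate 2 and lovastatin replicate 1 both left out (0.0671). The call was also lost with the replicate block (limma adjusted p = 0.0651). The mean stayed between -2.23 and -1.95 under all alternatives. Cyp7a1 was at -2.11 and -2.67 in fenofibrate mice, -1.96 and -2.16 in lovastatin mice, and -1.67 and -1.40 in HFC mice. Fenofibrate replicate 2, the lowest array for Cyp7a1 at -2.67, was the highest for Dbp at 0.07. Any link between Dbp and Cyp7a1 was not tested.

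Arntl, which encodes BMAL1 and is repressed by the REV-ERBs, was at 1.18 and 0.15 in fenofibrate mice, -0.06 and -0.19 in lovastatin mice, and 0.19 in HFC replicate 1, with 0.36 put back. Its mean over all groups was 0.35 (SE 0.203, limma adjusted p = 0.635). Npas2, a relative of Clock that also pairs with BMAL1, was at -0.03 and -1.21 in fenofibrate mice, -1.20 and -0.55 in lovastatin mice, and 0.26 in HFC replicate 1, with 1.37 put back. The mean of Npas2 was -0.46 (SE 0.244, limma adjusted p = 0.601). Bhlhe40, an E-box repressor also known as DEC1, was below 0 on all 5 arrays used (-0.84 to -0.20, mean -0.62, SE 0.158, limma adjusted p = 0.294), while its put-back value was 0.02. Hlf, the PAR bZIP relative of Dbp and Tef, was at -0.58 and -0.52 in fenofibrate mice, 0.19 and -0.30 in lovastatin mice, and -0.65 in HFC replicate 1, with 0.07 put back. The mean of Hlf was -0.45 (SE 0.142, limma adjusted p = 0.385). Nfil3, which competes with PAR bZIP factors at D-boxes, had a mean of 0.10 (SE 0.186, limma adjusted p = 0.881), and Rorb, a ROR receptor, one of 0.10 (SE 0.142, limma adjusted p = 0.844). Gsk3b, a kinase that phosphorylates clock proteins, had a mean of 0.49 (SE 0.128, limma adjusted p = 0.267) and lay above 0 on all 6 arrays, as the average of 2 probes on 5 of them and from 1 probe on HFC replicate 2. Those probes disagreed on the lovastatin arrays, at 1.47 and 0.46 for one and -0.73 and -0.18 for the other.

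Among the outputs, Upp2, a uridine phosphorylase, was below 0 on all 6 arrays. It was at -0.72 and -0.07 in fenofibrate mice, -1.91 and -1.90 in lovastatin mice, and -1.41 and -0.53 in HFC mice, with a mean of -0.92 (SE 0.175, limma adjusted p = 0.143). Both lovastatin values lie below all others, and the share of all features with this pattern was not counted. Cyp2a4, a steroid hydroxylase listed as a PAR bZIP target, was also below 0 on all 6 (-2.19 to -0.07, mean -1.07, SE 0.291, limma adjusted p = 0.281), and passed without lovastatin replicate 2 (-1.27, limma adjusted p = 0.0427). Alas1, the first enzyme of haem synthesis, was above 0 on 5 of 6 arrays (mean 0.71, SE 0.367, limma adjusted p = 0.572). Usp2, a ubiquitin protease with a strong rhythm, was at -0.66 and 1.17 in fenofibrate mice, -0.15 and -0.29 in lovastatin mice, and -0.72 and 1.24 in HFC mice. Its mean was 0.14 (SE 0.368, limma adjusted p = 0.915), and its SD within groups, 1.10, was above that of 95.2% of like features. Rgs16, a regulator of G-protein signalling named here after its values were seen, was at -0.80 and -1.46 in fenofibrate mice, -1.53 and -2.67 in lovastatin mice, and -0.41 and -1.19 in HFC mice, below 0 on all 6 arrays.

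**Figure D4:**
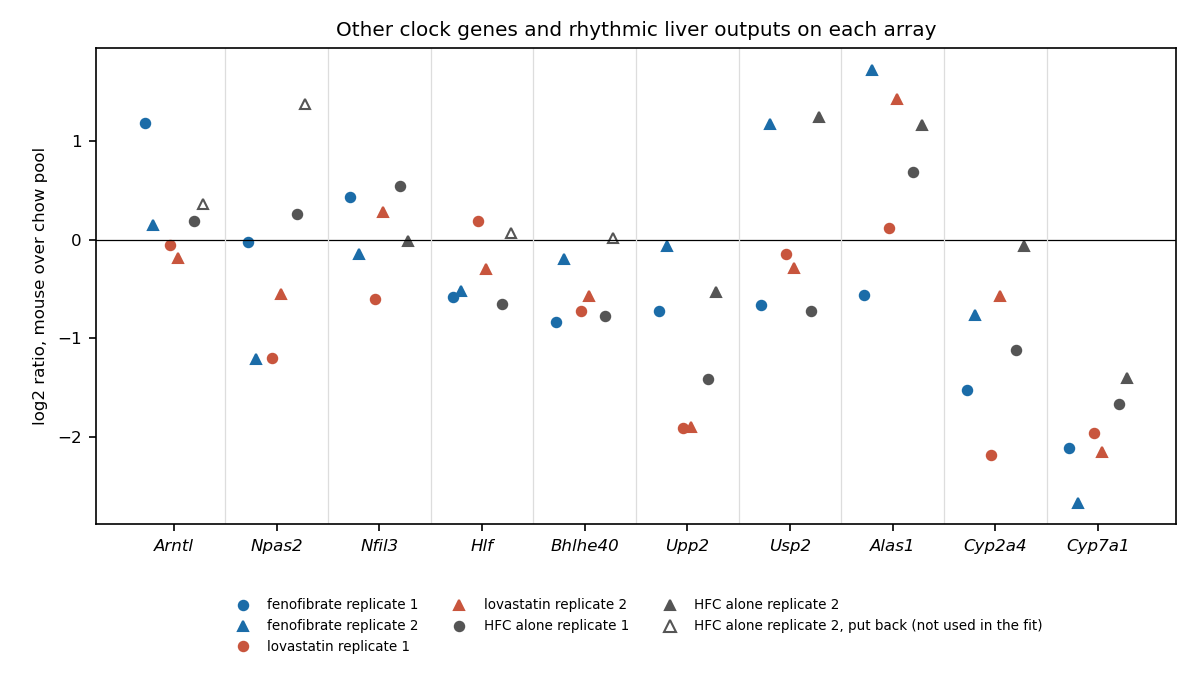
Log2 ratio of mouse over chow pool (vertical axis) for other clock genes and rhythmic liver outputs on each array, with fenofibrate in blue, lovastatin in red and HFC alone in grey, circles for replicate 1, triangles for replicate 2 and open triangles for put-back values. Cyp7a1 lies between -2.67 and -1.40 on all 6 arrays, and Usp2 spans 0 in the fenofibrate and HFC groups.

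The clock genes differed in how far replicates of a group lay apart. The SD within groups ranged from 0.209 for Clock to 0.863 for Per2, with Nr1d1 at 0.721, Tef at 0.513, Cry2 at 0.446, Dbp at 0.445, Per1 at 0.416, Nr1d2 at 0.403, Per3 at 0.375 and Cry1 at 0.355. The median over features with as many replicate pairs was 0.350, and Clock was the only one of the 10 below it. As a description of shape, the mean of Dbp, Tef, Per3 and Nr1d2 was -0.34 and 0.17 on the fenofibrate arrays, -0.38 and -0.56 on the lovastatin arrays, and -0.59 on HFC replicate 1. On HFC replicate 2, where Dbp is missing, the mean of the other 3 genes was 0.10, and with Dbp put back the mean of all 4 was -0.11. The nearest genes were sought with the mean of 3 there. Among 8444 named genes with a value on all 6 arrays, those nearest to this profile by Euclidean distance were Clstn3 (0.233), Lancl2 (0.257), Nhlrc2 (0.314), Ube2l6 (0.357) and Ttll3 (0.366), against a median distance of 1.41. They were picked as the nearest, so their distances are small by selection. The averaged genes did not share the profile on every array. On lovastatin replicate 1 Tef was at 1.02, and Per3, Nr1d2 and Dbp were at -0.85, -0.78 and -0.90. A common pattern was not tested.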

How the data were processed

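Log2 ratios, 1 value per spot and array, were deposited by the authors. The labels' protocols give 0.5 µg of total RNA per labelling with a linear amplification kit. For the scanner software, background correction, normalization and log base, the method was not given in the sources used here. Without intensities no filter on dim probes was possible. Precision is limited by having 2 arrays per group. Replicates are separate mice per the labels.

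Of 22575 spots, 726 had no value, and 561 unnamed spots with repeated values, taken as controls, were dropped. Symbols came from GEO's platform annotation (18658 probes with 1 symbol, 30 with several, 3887 spots with none), and 18445 probes matched the RefSeq gene table by Entrez number. Probes of a gene were averaged. Displaced spots of HFC replicate 2 were set to missing, and the put-back alternative rotated each of 4 blocks along the array rows to its best correlation with other arrays (0.237 to 0.256, against at most 0.0464 for any other rotation).

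Group means were fitted with limma 3.58.1 in R 4.3.3 over all 6 arrays (3 residual degrees of freedom where all values were present, prior 2.37), with p-values adjusted over all features. The ratio against 0 leaves out the spread between chow mice. The comparison of all groups weights lovastatin and HFC by 0.25 each and fenofibrate by 0.5. Alternatives covered the displaced spots, centring, quantile normalization, single probes, array weights, a robust prior, a replicate block and leaving out arrays.

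Members and lists were chosen with earlier results of these data known. Named genes were the members, list genes that passed, the 2 of smallest p in each list, and Arntl, Npas2, Nfil3, Bhlhe40, Usp2, Alas1 and Por (not measured). The 5 genes nearest to a mean profile were also named. Marker lists were for hepatocytes, Kupffer cells, lymphocytes, endothelium, stellate cells and cholangiocytes. Their medians in the comparison of all groups with the pool were -0.725, -0.055, -0.161, 0.025, 0.044 and 0.026 on the log2 scale, with 0 genes past the threshold. Python 3.11.15, numpy 2.4.6, pandas 2.3.3 and matplotlib 3.10.9 were used.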

Additional observations from a re-analysis of the deposited data

Results flagged for a closer look

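Arntl lay above 0 on both fenofibrate arrays (1.18 and 0.15) and below 0 on both lovastatin arrays (-0.06 and -0.19), a difference of means of 0.79 on the log2 scale, and this difference was not tested. Rorb lay above 0 on both fenofibrate arrays (0.23 and 0.44) and below 0 on both HFC arrays (-0.48 and -0.04), a difference of 0.595 that did not pass (limma adjusted p = 1.0). In both cases the mouse had Cy3 on the fenofibrate arrays only, so dye and drug cannot be told apart. Of all features with 4 values, 39.5% did not overlap between fenofibrate and HFC in either direction. The share that also lay on opposite sides of 0 was not counted, nor was any share for fenofibrate against lovastatin.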

How the results depend on the processing

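Of 880 recomputed values of the 10 clock genes (60 values, 15 alternatives, not all of which gave a value), 2 passed the threshold, both for Per1 without lovastatin replicate 2. That setting leaves the widest array alone for its group and also gave the most calls over all features. In 59 of the 880 values the sign differed from the main value, 23 of them by more than the standard error, and none of these had passed. The number of clock genes called was 0 under every other alternative and between 0 and 1 when single arrays were left out, both in all groups and in lovastatin mice against the pool. Over all features the count for all groups against the pool was 110, and 67 as deposited, 191 with the blocks put back, 191 after quantile normalization, 230 with array weights and 22 with HFC replicate 2 and lovastatin replicate 1 both left out (an alternative chosen after seeing the data). Leaving out single arrays gave 0 (either fenofibrate array) to 824 (lovastatin replicate 2, which leaves the widest array), with 5 without HFC replicate 1, 25 without HFC replicate 2 and 228 without lovastatin replicate 1. For fenofibrate against the pool the count was 0, with a smallest limma adjusted p of 0.0501, and 9 features passed as deposited, 32 put back, 12 after median centring, 14 after quantile normalization, 111 with array weights and 0 to 23 when single arrays were left out. For lovastatin against the pool 2 passed put back, 4 after quantile normalization and 0 to 3805 when single arrays were left out. For HFC against the pool the counts were 5, 9 and 0 to 6. For lovastatin against HFC they were 0 to 1184 when single arrays were left out, the highest without lovastatin replicate 2, and for fenofibrate against HFC 0 throughout. A lone remaining array was assumed to vary like the other groups, and without HFC replicate 1 the displaced genes had no HFC value. The cause of these shifts was not tested.

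With the replicate block, 0 features passed for all groups against the pool (Cyp7a1 at limma adjusted p = 0.0651). Deviations of arrays with the same number correlated at 0.0311, -0.0001 and -0.0241 across features, so no pairing by number was seen over all features. A correlation over all features cannot show whether a few genes vary together by number. In half-width the 95% interval had a median of 0.412 for all groups against the pool and of 1.03 for either drug against HFC, which limits the differences that could be detected.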

Other observations

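Per2, Nr1d2 and Usp2 shared a split between replicates of the same group. In both the fenofibrate and the HFC group, replicate 1 lay below 0 for all 3 genes and replicate 2 above 0. The values were -0.89, -0.17 and -0.66 against 0.18, 0.47 and 1.17 in fenofibrate mice. In HFC mice they were -1.07, -0.26 and -0.72 against 0.46, 0.49 and 1.24. In lovastatin mice the values were -0.20, -0.78 and -0.15 in replicate 1 and 0.79, -0.77 and -0.29 in replicate 2. Whether replicates of the same number share anything was not tested for these genes. These genes were picked after their values were seen, so they are given as a description with no test.

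Noct, a gene of the liver outputs that encodes the rhythmic protein nocturnin and that the rule for named genes did not pick, had an SD within groups of 1.27, above that of 97.3% of like features. It was at -2.45 and -1.58 in fenofibrate mice, -1.03 and -0.46 in lovastatin mice, and -1.56 and 1.36 in HFC mice. Elovl3, a fatty acid elongase with a strong liver rhythm and likewise outside the rule, was at 0.17 and 0.80 in fenofibrate mice, -1.08 and -1.12 in lovastatin mice, and -1.18 and -0.04 in HFC mice. Both fenofibrate values lay above all 4 others, and the share of all features with this pattern was not counted.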
